A study of Mus musculus with 6 samples.

Results

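A set of 10 genes that move nucleosides across membranes, or make, remove and sense extracellular adenosine and ATP, was followed in activated mouse CD4 T cells with and without the transcription factor Foxo1. The set comprised the transporters Slc28a2, Slc28a2b, Slc29a1 and Slc29a3 and the ectoenzymes Entpd1 and Nt5e. It also held adenosine deaminase Ada, the surface peptidase Dpp4 and the receptors Adora2a and P2rx7. The set makes up 10 of the 55487 genes in the count files and 10 of the 13564 genes in the deposited normalized table. The genes were chosen by name, with the difference between the genotypes in these same libraries already known. The levels and fold changes of the 10 genes are therefore given as a description, without a test.

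CD4 naive cells were sorted from lymph nodes of C57BL/6J mice and were kept for 4 days in cultures that contained an anti-CD3 antibody (0.1 µg/ml) and 250000 CD3eKO splenocytes, which include no T cells and serve as antigen presenting cells. The cultures of both genotypes thus received the same antibody and the same antigen presenting cells. Foxo1TKO libraries (n = 3) came from CD4-cre Foxo1 fl/fl mice, in which the gene is recombined in thymocytes before the CD4 and CD8 lineages part, and Foxo1Ctrl libraries (n = 3) from Foxo1 fl/fl mice without Cre. The methods describe both as young adults on a Foxp3-GFP reporter background. Whether splenocytes were removed before RNA was extracted is not given in the sources used here. The labels give 50000 naive cells per culture, whereas the methods give a larger number and pooled peripheral and mesenteric lymph nodes. No label says that the libraries of one genotype came from separate mice, so p-values measure the spread between these libraries, which may be technical.

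Nucleosides enter cells through concentrative transporters of the SLC28 family, which are driven by sodium, and through equilibrative transporters of the SLC29 family, which let them pass down their gradient in either direction. Outside the cell, CD39 (Entpd1) degrades ATP and ADP to AMP, and CD73 (Nt5e) turns AMP into adenosine, which restrains T cells mainly through the receptor encoded by Adora2a. Adenosine is removed by uptake or by adenosine deaminase, whereas extracellular ATP itself opens the P2RX7 channel. In some species CD26 (Dpp4) can hold adenosine deaminase at the cell surface. Whether it does so in these mouse cells was not tested.

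The expected counts of RSEM, which share a read among the genes it maps to and need not be whole, summed to between 14783890 and 19675447 per library. Values below are TMM-normalized counts (counts scaled so that libraries of different depth and composition can be compared), as mean ± SD with n = 3 libraries per genotype, and log2 fold changes are Foxo1TKO against Foxo1Ctrl with their standard error (SE). A gene was called when its adjusted p was under 0.05 and its fold change over 1.5. Foxo1 itself (ENSMUSG00000044167) had 1516, 2266 and 1584 normalized counts in Foxo1Ctrl replicates 1 to 3 and 84.7, 46.1 and 114 in Foxo1TKO replicates 1 to 3. Its log2 fold change was −4.45 (SE 0.36, adjusted p = 0.000195, edgeR quasi-likelihood, Benjamini-Hochberg adjusted). On the second principal component, which held 17.1% of the variance, Foxo1Ctrl replicate 2 (−53.8) lay apart from both other Foxo1Ctrl libraries (20.4 and 29.4), and the Foxo1TKO libraries ran from −38.5 to 46.1. Genes of high GC content (highest decile by the longest transcript) were low relative to genes of low GC content in Foxo1Ctrl replicate 2 (median log2 difference −0.74) and high in Foxo1TKO replicate 1 (0.65), while the other 4 libraries lay between −0.14 and 0.19.

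All 10 genes had at least 10 counts in at least 3 libraries and were among the 13691 genes tested. Slc28a2b passed this filter through its Foxo1Ctrl libraries alone, and the other 9 genes had at least 10 counts in every library. Of the 10 genes, 7 were called, 2 higher (Slc29a1, P2rx7) and 5 lower (Slc28a2, Slc28a2b, Entpd1, Nt5e, Dpp4) in Foxo1TKO cells. Across all genes tested, 23.0% were called, 11.1% higher and 11.8% lower. The libraries of the genotypes did not overlap for the same 7 genes, against 42.7% of all genes. The median log2 fold change was −0.63 over the 10 genes and 0.01 over all genes tested. Because the genes were selected on this very difference, nothing is read from these counts. In bulk RNA, fewer cells of one type and less RNA per cell cannot be told apart.

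**Figure D1:**
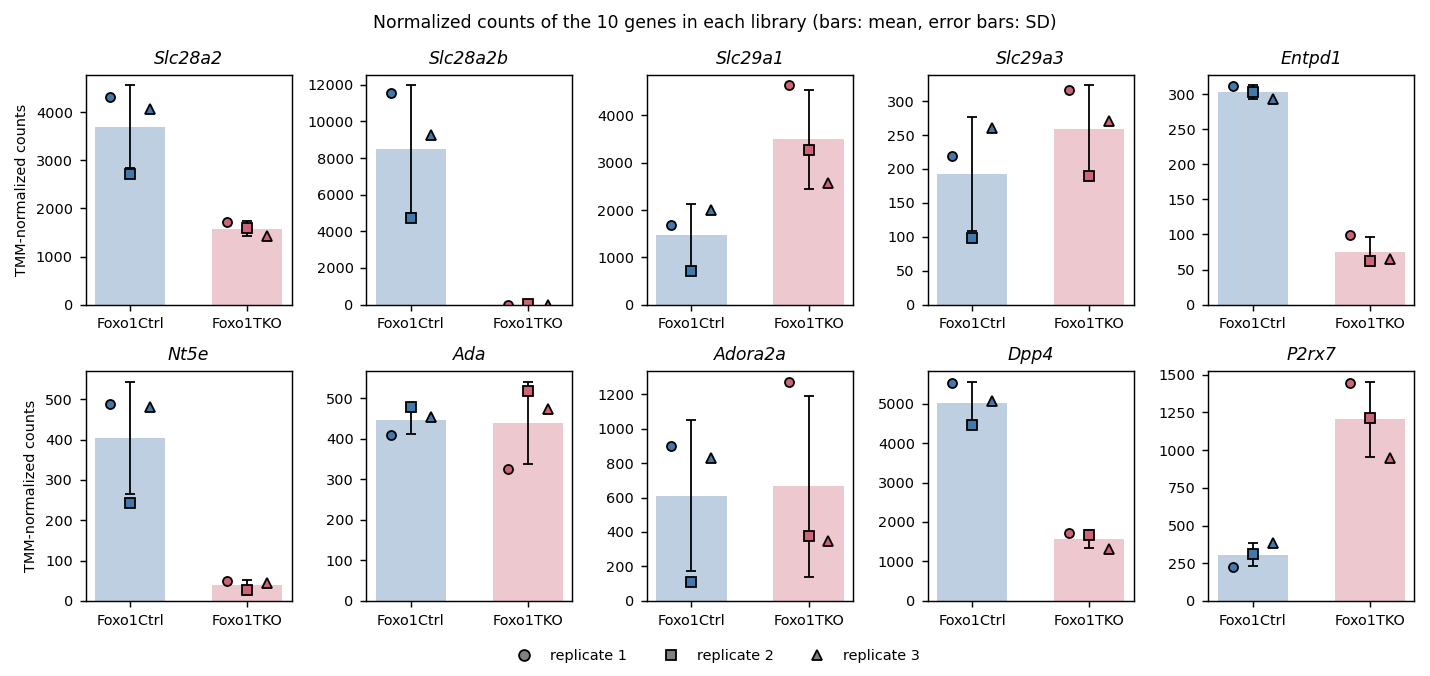
TMM-normalized counts (vertical axes, each from 0) of the 10 genes in the 3 Foxo1Ctrl and 3 Foxo1TKO libraries. Points are libraries, bars the mean of a genotype and error bars the SD. Slc28a2b lies between 4702 and 11533 in Foxo1Ctrl and between 0 and 3.48 in Foxo1TKO, and Adora2a spreads over both genotypes.

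The concentrative transporters Slc28a2 and Slc28a2b are neighbours of one another on chromosome 2 (GRCm38). Slc28a2 (ENSMUSG00000027219), the sodium-coupled carrier CNT2 of purine nucleosides and uridine, lies on the plus strand at chr2:122426477-122461137. Its paralog Slc28a2b (ENSMUSG00000079071, Gm14085 in GENCODE M21) lies at chr2:122484941-122528040 on the same strand, 23803 bases downstream. Their coding sequences are both 1983 bases long and 94.7% identical over 1984 aligned positions. The stretch from base 424 to base 483 of the coding sequence, counted from the A of the start codon, is the 60-base window with the most differences between the paralogs, and is shown because such differences are what lets a read be assigned to one gene or the other. Its 21 differing bases are in capitals:
Slc28a2: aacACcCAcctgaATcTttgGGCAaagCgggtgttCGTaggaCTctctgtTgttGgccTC
Slc28a2b: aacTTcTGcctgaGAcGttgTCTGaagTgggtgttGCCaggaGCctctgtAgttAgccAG
Elsewhere the sequences are more alike, with 1 run of 192 identical bases, and 30.3% of the 50-base windows of Slc28a2b transcripts occur unchanged in a transcript of Slc28a2. Reads from such stretches are divided between the genes by RSEM.

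Slc28a2b had the largest fitted change of all genes tested. It had 11533, 4702 and 9236 normalized counts in Foxo1Ctrl replicates 1 to 3, and 1.68, 3.48 and 0 in Foxo1TKO replicates 1 to 3. All Foxo1TKO libraries were thus near 0, and the lowest Foxo1Ctrl library was replicate 2. The rounded counts summed to 23512 over the Foxo1Ctrl libraries and to 6 over the Foxo1TKO libraries. Scaled for depth, the ratio was 4646 (95% exact interval 2134 to 12660, which covers counting error only). The fitted log2 fold change was −11.56 (SE 0.60), a value that depends on the prior count added to so few counts.

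Slc28a2 was lower in Foxo1TKO cells too, with a smaller difference. Its normalized counts were 4313, 2713 and 4065 in Foxo1Ctrl and 1719.9, 1597 and 1423 in Foxo1TKO libraries. The Foxo1TKO libraries were close together and below every Foxo1Ctrl library (3697 ± 862 against 1579.8 ± 149, log2 fold change −1.23, SE 0.20). Slc28a2b made up 72.8%, 63.4% and 69.4% of the counts of both paralogs in the Foxo1Ctrl libraries and at most 0.244% in the Foxo1TKO libraries. The sum of both paralogs, which does not depend on how reads were divided between them, was 12190 ± 4325 in Foxo1Ctrl and 1582 ± 150.2 in Foxo1TKO libraries, 7.71 times higher in Foxo1Ctrl.

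The other genes of this stretch of chromosome 2 were looked at for their position only. Within 200 kb of the pair, 5 other genes were tested, all with negative log2 fold changes from −6.87 to −0.73, and 3 of them were called. Over all genes tested 23.0% were called, 11.8% lower, and 5 genes are too few to describe the region. Bambi-ps1, a pseudogene and the single annotated gene between the paralogs, lies on the minus strand at chr2:122466935-122467526 and fell from 1515 ± 376 to 12.5 ± 11.3 normalized counts (log2 fold change −6.87, adjusted p = 0.000184, edgeR quasi-likelihood, Benjamini-Hochberg adjusted). Reads of Bambi-ps1 may be shared with its parent gene Bambi, whose own log2 fold change was of the opposite sign (4.58, SE 0.33, chosen after its values were seen). AA467197, downstream of Slc28a2b, fell from 302 ± 79.8 to 79.4 ± 22.1 (log2 fold change −1.91, adjusted p = 0.00316, edgeR quasi-likelihood, Benjamini-Hochberg adjusted). Sord, the sorbitol dehydrogenase gene upstream of Slc28a2, fell from 145 ± 31.3 to 68.1 ± 17.3 (log2 fold change −1.08, adjusted p = 0.0312, edgeR quasi-likelihood, Benjamini-Hochberg adjusted). Gatm (log2 fold change −1.17, SE 0.77) and the zinc transporter gene Slc30a4 (−0.73, SE 0.27) were not called.

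By the Euclidean distance between centred log2 CPM values (counts scaled to library size) over the 6 libraries, the genes with the pattern most like that of Slc28a2b were Atp6v0d2, a subunit of the vacuolar proton pump (distance 4.84), Klf2, a transcription factor of naive T cells (5.01), and Itga7, an integrin chain (5.09). Atp6v0d2 had 293 normalized counts on average in Foxo1Ctrl libraries and was listed at 0 in all Foxo1TKO libraries. Klf2 had 648 and 2.54, and Itga7 had 235 and 0. The values were centred but not scaled, so beside a gene that fell this far the distance favours other genes with large falls. Nothing further is read from the likeness.

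The equilibrative transporter Slc29a1 (ENSMUSG00000023942, chr17:45585200-45599606, minus strand), or ENT1, is the main carrier of adenosine of this family at the plasma membrane, and its transcript was higher in Foxo1TKO cells. It had 1684, 709 and 1999 normalized counts in Foxo1Ctrl and 4634, 3278 and 2581 in Foxo1TKO libraries. The genotypes did not overlap, but the libraries of each spread widely, with Foxo1Ctrl replicate 2 lowest and Foxo1TKO replicate 1 highest of all. The log2 fold change was 1.256 (SE 0.38). The call was narrow: with each library left out in turn the log2 fold change ran from 0.94 to 1.54 and the call held in 1 of 6 fits. The GC content of its transcript (55.3%) was above that of 83.4% of the genes tested, and with a correction for GC content added after seeing the data, the log2 fold change was 1.19 and the gene still called. The antisense gene Gm17080 overlaps its exons, and the strandedness of the counting is not stated.

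Slc29a3 (ENSMUSG00000020100, chr10:60712072-60752794, minus strand), or ENT3, is the equilibrative transporter of lysosomes. It had 219, 98.7 and 260 normalized counts in Foxo1Ctrl and 316, 189.7 and 271 in Foxo1TKO libraries. The genotypes overlapped (log2 fold change 0.42, SE 0.37), and Foxo1Ctrl replicate 2 was again lowest. The remaining members of both families were under the count filter. Slc28a1 and Slc28a3 had no counts in any library, Slc29a4 had at most 5.87 normalized counts, and Slc29a2 had 0 to 3.55 in Foxo1Ctrl and 0 to 31.0 in Foxo1TKO libraries.

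Levels of different genes were compared as TPM (transcript abundance scaled to the library), which allow for gene length. Within the 4 transporters, the SLC28 pair made up 80.9%, 84.2% and 75.4% of the summed TPM in Foxo1Ctrl replicates 1 to 3, and 16.9%, 22.6% and 24.0% in Foxo1TKO replicates 1 to 3. Slc29a1 made up 17.8%, 14.99% and 23.2% in Foxo1Ctrl and 80.2%, 75.7% and 73.5% in Foxo1TKO libraries. The composition thus differed between the genotypes with no overlap, and it was alike in Foxo1Ctrl replicate 2 and in the other Foxo1Ctrl libraries. The summed TPM overlapped, with 415, 159 and 371 in Foxo1Ctrl and 267, 174 and 133 in Foxo1TKO libraries.

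**Figure D2:**
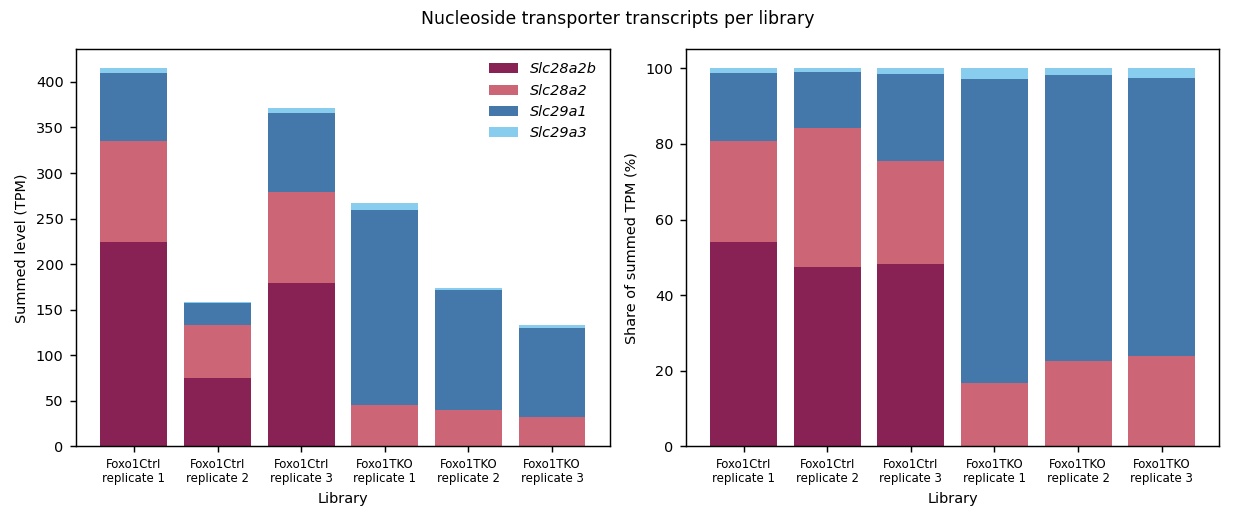
Summed TPM of the 4 nucleoside transporters (left) and the share of each in that sum in percent (right), for each of the 6 libraries on the horizontal axis. The SLC28 pair (red shades) holds 75.4% to 84.2% of the sum in Foxo1Ctrl and 16.9% to 24.0% in Foxo1TKO libraries, while the sums themselves overlap.

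Both ectoenzymes that lead from ATP to adenosine had lower transcript levels in Foxo1TKO cells. Entpd1 (ENSMUSG00000048120, chr19:40612366-40741602, plus strand) had 312, 304 and 293 normalized counts in Foxo1Ctrl and 99.7, 61.8 and 64.9 in Foxo1TKO libraries. The 3 Foxo1Ctrl libraries were nearly equal, replicate 2 included (log2 fold change −1.99, SE 0.25). Nt5e (ENSMUSG00000032420, chr9:88327197-88372092, plus strand), which catalyses the step that yields adenosine, had 488, 243 and 479 normalized counts in Foxo1Ctrl and 50.3, 27.0 and 44.7 in Foxo1TKO libraries. Its difference was larger (log2 fold change −3.28, SE 0.37), and the lowest Foxo1Ctrl library stayed above the highest Foxo1TKO library. In TPM, the ratio of Entpd1 to Nt5e was 1.04, 2.18 and 0.97 in Foxo1Ctrl and 3.58, 4.83 and 2.36 in Foxo1TKO libraries.

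B cells also express Entpd1, and the splenocytes added to the cultures hold B cells. Of the 14 B cell markers listed, 12 were tested and 6 were called, all lower in Foxo1TKO libraries. The summed normalized counts of the list were 26589, 19247 and 22111 in Foxo1Ctrl and 7216, 8392 and 6869.8 in Foxo1TKO libraries, most of them from Ighm and Igkc. Ms4a1, which encodes CD20, had 109.96, 119 and 111 normalized counts in Foxo1Ctrl and 15.9, 31.3 and 24.5 in Foxo1TKO libraries (log2 fold change −2.20, adjusted p = 0.00234, edgeR quasi-likelihood, Benjamini-Hochberg adjusted). Cd79a, a chain of the B cell receptor, had 171, 78.3 and 166 in Foxo1Ctrl and 45.3, 49.6 and 62.8 in Foxo1TKO libraries (log2 fold change −1.39, adjusted p = 0.0252, edgeR quasi-likelihood, Benjamini-Hochberg adjusted). The part of B cells in the differences of Entpd1 and Nt5e was not tested.

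Regulatory T cells carry CD39 and CD73 in the mouse, and the study defines naive cells as low in CD44 and negative for Foxp3, a gate that leaves regulatory T cells out of the starting population. Foxp3 had few counts, with 15.4, 27.2 and 20.2 normalized counts in Foxo1Ctrl and 10.1, 14.8 and 6.39 in Foxo1TKO libraries, and was not called. Of the 11 markers on the regulatory T cell list, 2 were called higher, Ikzf2 among them, and 4 lower, Ctla4 among them, although activated T cells express several of these too. The T cell label was borne out by its markers. Cd3e had 7395 to 9335 normalized counts in Foxo1Ctrl and 7944 to 11088 in Foxo1TKO libraries, and of 13 T cell markers 2 were called, Trbc2 and Cd28, both lower. Jchain, the plasma cell marker, was lower in Foxo1TKO cells (log2 fold change −1.47, adjusted p = 0.0262, edgeR quasi-likelihood, Benjamini-Hochberg adjusted). Of the NK cell list, Klrd1 was called lower, while Ncr1 had at most 10.9 normalized counts. The macrophage, dendritic cell, neutrophil, erythroid, CD8 T cell and stromal lists had no gene called. Of their defining markers, Cdh5 was at 0, Csf1r and Adgre1 had at most 3.35 normalized counts and Flt3 at most 5.67. The neutrophil marker S100a8 had 11.7 and 8.70 in Foxo1TKO replicates 1 and 2 and 0 in the other 4 libraries. The erythroid marker Hbb-bs had 47.9 to 171 normalized counts across all libraries, and Cd8a had at most 27.8, in Foxo1TKO replicate 2.

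**Figure D3:**
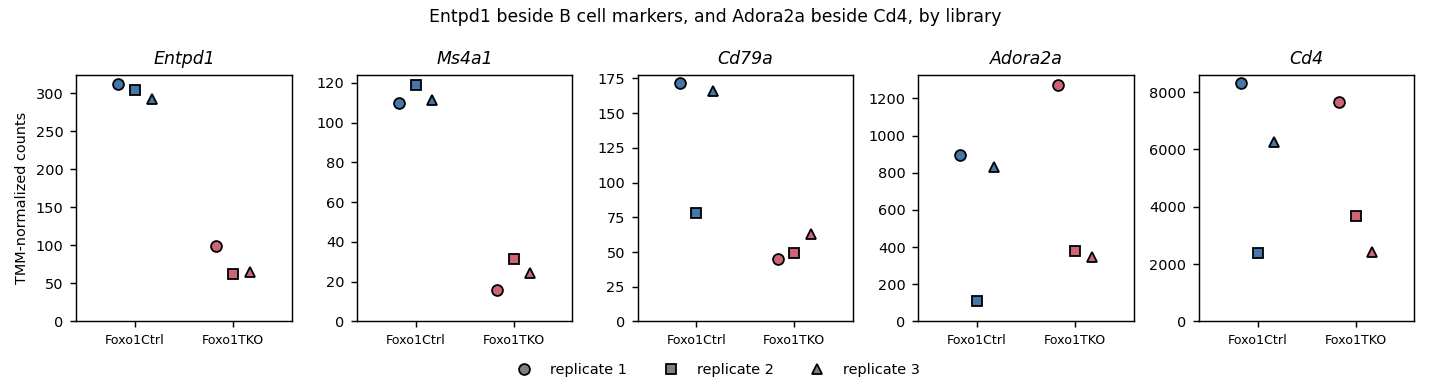
TMM-normalized counts (vertical axes, from 0) of Entpd1 beside the B cell markers Ms4a1 and Cd79a, and of Adora2a beside Cd4, in the 6 libraries. Entpd1, Ms4a1 and Cd79a separate the genotypes. Adora2a, Cd4 and Cd79a share their lowest Foxo1Ctrl library, replicate 2.

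Ada (ENSMUSG00000017697, chr2:163726584-163750239, minus strand), which deaminates adenosine to inosine, overlapped between the genotypes. It had 409, 479 and 454 normalized counts in Foxo1Ctrl and 326, 519 and 474 in Foxo1TKO libraries. The lowest and the highest library were both Foxo1TKO (447 ± 35.2 against 439 ± 100.7, log2 fold change −0.03, SE 0.21). Dpp4 (ENSMUSG00000035000, chr2:62330073-62412231, minus strand), the surface peptidase CD26, was lower in Foxo1TKO cells. It had 5525, 4455 and 5054 normalized counts in Foxo1Ctrl and 1726, 1678 and 1312 in Foxo1TKO libraries. The genotypes were well apart (log2 fold change −1.67, SE 0.17), and in TPM the ratio of Dpp4 to Ada was 5.67, 3.87 and 5.13 in Foxo1Ctrl and 2.31, 1.28 and 1.03 in Foxo1TKO libraries. The antisense gene Gm13561, which overlaps exons of Dpp4, had at most 17.7 normalized counts in any library. None of the 6 tested genes among the 9 other dipeptidyl peptidases and relatives was called, Dpp8 (log2 fold change −0.33) and Dpp9 (0.27) included.

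Adora2a (ENSMUSG00000020178, chr10:75316877-75334784, plus strand) encodes the receptor through which adenosine raises cyclic AMP. It had 896, 108 and 830 normalized counts in Foxo1Ctrl and 1271, 378 and 348 in Foxo1TKO libraries. Its spread relative to the mean was the widest of the 10 genes in Foxo1Ctrl and, after the few counts of Slc28a2b, in Foxo1TKO libraries, and the genotypes overlapped (611 ± 437 against 665 ± 524, log2 fold change 0.12, SE 0.76). The lowest value was that of Foxo1Ctrl replicate 2 and the highest that of Foxo1TKO replicate 1. Without the former the log2 fold change was −0.35, and without the latter −0.74. The GC content of its transcript was 59.2%, above that of 95.9% of the genes tested. Cd4 was likewise lowest in Foxo1Ctrl replicate 2, with 8316, 2389 and 6258 normalized counts in Foxo1Ctrl and 7666, 3688 and 2421 in Foxo1TKO libraries. With the correction for GC content the log2 fold change of Adora2a was 0.01, and these libraries do not settle a direction for Adora2a. The other adenosine receptors were under the count filter: Adora1 had no counts, Adora2b had 0 to 2.37 normalized counts in Foxo1Ctrl and 5.03 to 13.8 in Foxo1TKO libraries, and Adora3 had at most 7.09.

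P2rx7 (ENSMUSG00000029468, chr5:122643911-122691432, plus strand) encodes a channel that opens at high extracellular ATP. It had 228, 312 and 383 normalized counts in Foxo1Ctrl and 1447, 1213 and 949 in Foxo1TKO libraries. Every Foxo1TKO library was above every Foxo1Ctrl library, and replicate 2 of Foxo1Ctrl lay between the other two (308 ± 77.7 against 1203 ± 249, log2 fold change 1.96, SE 0.25). Its log2 fold change ran from 1.76 to 2.14 with each library left out. A microRNA gene, Mir8115, lies over its exons on the same strand.

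**Figure D4:**
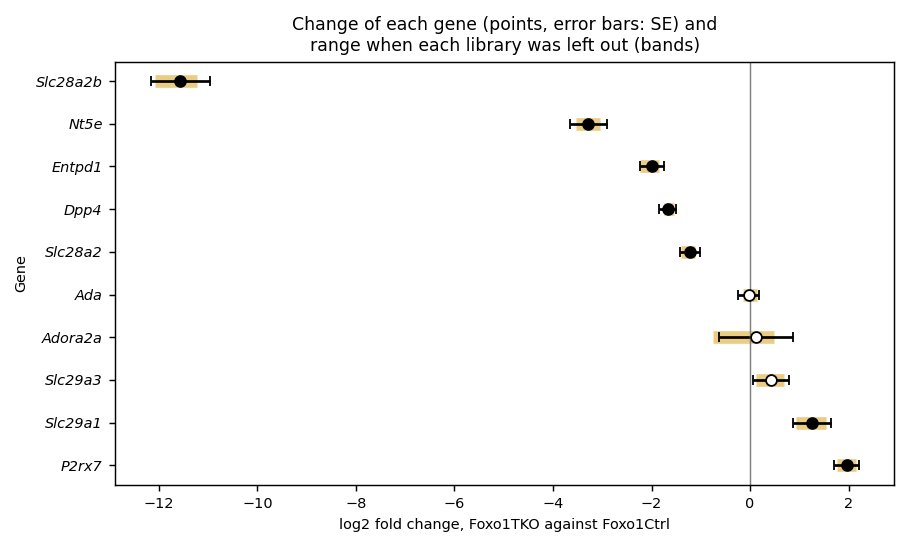
Log2 fold change of each gene, Foxo1TKO against Foxo1Ctrl (horizontal axis), with its SE as error bar and, as a band, its range over the fits that each lack 1 library. Filled points were called. Slc28a2b lies at −11.56, where the band holds 3 fits, and the bands of Ada and Adora2a cross 0.

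In Foxo1Ctrl cells the order of the mean levels in TPM was Slc28a2b (159.6 ± 76.3), Dpp4 (93.5 ± 20.5), Slc28a2 (90.0 ± 28.1), Slc29a1 (61.3 ± 33.1), Ada (19.1 ± 1.24), Adora2a (17.2 ± 12.7), P2rx7 (11.6 ± 3.19), Entpd1 (8.55 ± 0.683), Nt5e (7.07 ± 2.95) and Slc29a3 (4.01 ± 2.30). Of the neighbours in this order, Slc29a1 and Ada alone did not overlap across the 3 libraries. In Foxo1TKO cells the order was Slc29a1 (148 ± 59.9), P2rx7 (41.1 ± 9.68), Slc28a2 (38.8 ± 6.54), Dpp4 (28.6 ± 8.43), Adora2a (19.6 ± 17.4), Ada (19.3 ± 3.32), Slc29a3 (4.70 ± 2.75), Entpd1 (2.55 ± 1.02), Nt5e (0.74 ± 0.281) and Slc28a2b (0.0367 ± 0.0351). Here Slc29a1 and P2rx7, Ada and Slc29a3, Entpd1 and Nt5e, and Nt5e and Slc28a2b did not overlap. Slc28a2b thus went from the first to the last place, and P2rx7 from the seventh to the second.

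RefSeq promoter windows (GRCm38.p6, 250 bases before to 50 after a transcription start) were found for 9 of the 10 genes, 18 windows in all, and were searched on both strands for the forkhead motif GTAAACA and its shorter core TAAACA, which lies within the former. None of the 18 windows held GTAAACA, which occurs in 3.65% of all 32851 windows and in 2.63% of the first windows of the genes tested. TAAACA was found in 1 window, of P2rx7 at chr5:122643677-122643976, against 13.4% of all windows and 8.71% of the first windows of the genes tested. Of the 18 windows, 8 belong to Slc29a1, some of them overlapping one another, and Adora2a has none. The windows therefore do not weigh the genes equally. No match says only that these letters are not in these windows.

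The wider pathway was described with 8 lists of genes that hold none of the 10 genes above. Of their 135 genes, 95 were tested, and 32 (33.7%) were called, 11 higher and 21 lower in Foxo1TKO cells, with a median log2 fold change of −0.08. Over all 13691 genes tested, 23.0% were called, 11.1% higher and 11.8% lower. Among the called pathway genes, Prkar2b, Adcy5, Slc22a2, Art2a and Gja1 had under 10 counts in every library of the genotype with the lower level. They passed the count filter through the other genotype alone, which favours a difference, so their values are given without a p-value. Without Foxo1TKO replicate 2, 17 of 89 tested pathway genes were called, against 12.01% of all genes in that fit. The share called was highest for the P2 receptors (3 of 5 genes) and the ectonucleotidases and NAD ectoenzymes (57.1%), and was 0 of 6 for the dipeptidyl peptidase family.

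Of 14 ectonucleotidases and NAD ectoenzymes tested, 7 were called lower and 1 higher. Cd38, which consumes extracellular NAD, rose from 400 ± 128 to 1746 ± 171 normalized counts (log2 fold change 2.12, adjusted p = 0.00115, edgeR quasi-likelihood, Benjamini-Hochberg adjusted). Art2a fell from 41.8 ± 18.0 to 3.94 ± 2.93 (log2 fold change −3.11, SE 0.59). It is similar to the also lower Art2b, with which it may share reads. Art2b encodes the ADP-ribosyltransferase that can open P2RX7 with NAD as its substrate. Acp3, an acid phosphatase that also turns AMP into adenosine, fell from 211 ± 89.1 to 60.6 ± 5.68 (log2 fold change −1.78, adjusted p = 0.00771, edgeR quasi-likelihood, Benjamini-Hochberg adjusted). Bst1, a relative of Cd38, had a log2 fold change of −1.49, and Enpp1, which hydrolyses ATP to AMP, one of −1.17 (983 ± 114 to 437 ± 44.6), with adjusted p-values of 0.0158 and 0.00247 (edgeR quasi-likelihood, Benjamini-Hochberg adjusted).

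Among the genes of ATP release, 9 were tested, 3 were lower and 1 higher. Slc17a9, the vesicular nucleotide transporter, fell from 451 ± 75.9 to 91.5 ± 25.1 normalized counts (log2 fold change −2.28, adjusted p = 0.000989, edgeR quasi-likelihood, Benjamini-Hochberg adjusted). Of the volume-regulated channel subunits, Lrrc8a was lower (log2 fold change −1.27, adjusted p = 0.00993) and Lrrc8b higher (1.83, adjusted p = 0.00501, both edgeR quasi-likelihood, Benjamini-Hochberg adjusted). Gja1, a connexin, had 9.61 to 17.7 normalized counts in Foxo1Ctrl and none in Foxo1TKO libraries, at least 5.33-fold lower against a floor of 3 counts per library. The pannexin gene Panx1 was not called (log2 fold change −0.47).

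Of the 5 P2X and P2Y receptors tested, 3 were lower and none was higher. P2ry10, a lysophospholipid receptor grouped with the P2Y family by sequence, fell from 3734 ± 32.8 to 692 ± 69.0 normalized counts (log2 fold change −2.43, adjusted p = 7.00e-05, edgeR quasi-likelihood, Benjamini-Hochberg adjusted). Its paralog P2ry10b, with which it may share reads, had a log2 fold change of −1.502, and P2ry14, a receptor of UDP-sugars, one of −1.29 (adjusted p = 0.0132 and 0.0135, edgeR quasi-likelihood, Benjamini-Hochberg adjusted). P2rx4, the ATP-gated channel next to P2rx7 in the family, was not called (885 ± 174 against 672 ± 54.3).

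In the adenosine receptor and cyclic AMP list, 17 genes were tested, 3 were higher and 2 lower. Prkar2b, a regulatory subunit of protein kinase A, rose from 3.84 ± 1.74 to 78.1 ± 30.9 normalized counts (log2 fold change 4.01, SE 0.49). The adenylyl cyclase gene Adcy5 rose from 1.66 ± 1.97 to 33.7 ± 10.7 (log2 fold change 3.66, SE 0.64). Adcy7 instead fell from 1791 ± 129.9 to 951 ± 25.1 (adjusted p = 0.00283, edgeR quasi-likelihood, Benjamini-Hochberg adjusted). Gnas, which encodes the stimulatory G protein, was called higher with overlapping libraries (log2 fold change 0.92, adjusted p = 0.0417), and Crtc3, a coactivator of CREB, was lower (−0.98, adjusted p = 0.0191, both edgeR quasi-likelihood, Benjamini-Hochberg adjusted).

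Inside the cell, Adk and Dck phosphorylate the nucleosides that the transporters bring in. Adk, adenosine kinase, fell from 7841 ± 1294 to 1154 ± 237 normalized counts (log2 fold change −2.76, SE 0.22, adjusted p = 0.000184, edgeR quasi-likelihood, Benjamini-Hochberg adjusted). Dck, deoxycytidine kinase, fell from 3287 ± 566 to 669.6 ± 113 (log2 fold change −2.29, adjusted p = 0.000265, edgeR quasi-likelihood, Benjamini-Hochberg adjusted). Samhd1, which breaks down deoxynucleoside triphosphates, fell from 32754 ± 4602 to 2347 ± 201 (log2 fold change −3.80, SE 0.18, adjusted p = 3.42e-05, edgeR quasi-likelihood, Benjamini-Hochberg adjusted).

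Of 23 genes of adenosine and purine salvage tested, Adk, Ak3 (log2 fold change −0.71) and Ak4 (−1.68) were lower, Nt5m (0.69) and Mtap (0.87) were higher and 18 were not called, Pnp among them (0.39). Of 16 genes of deoxynucleoside and pyrimidine salvage, Samhd1, Dck and Upp1 were lower, and Dctd (1.98), Nme1 (1.495) and Tk1 (0.94) were higher. Of 5 tested genes among other nucleoside and nucleobase transporters, Slc22a2, an organic cation transporter, was higher. It had 42.5 ± 8.53 normalized counts in Foxo1TKO against 2.87 ± 1.68 in Foxo1Ctrl libraries (log2 fold change 3.49, SE 0.46). Slc43a3, Slc23a2, Abcc4 and Abcc5 were not called.

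**Figure D5:**
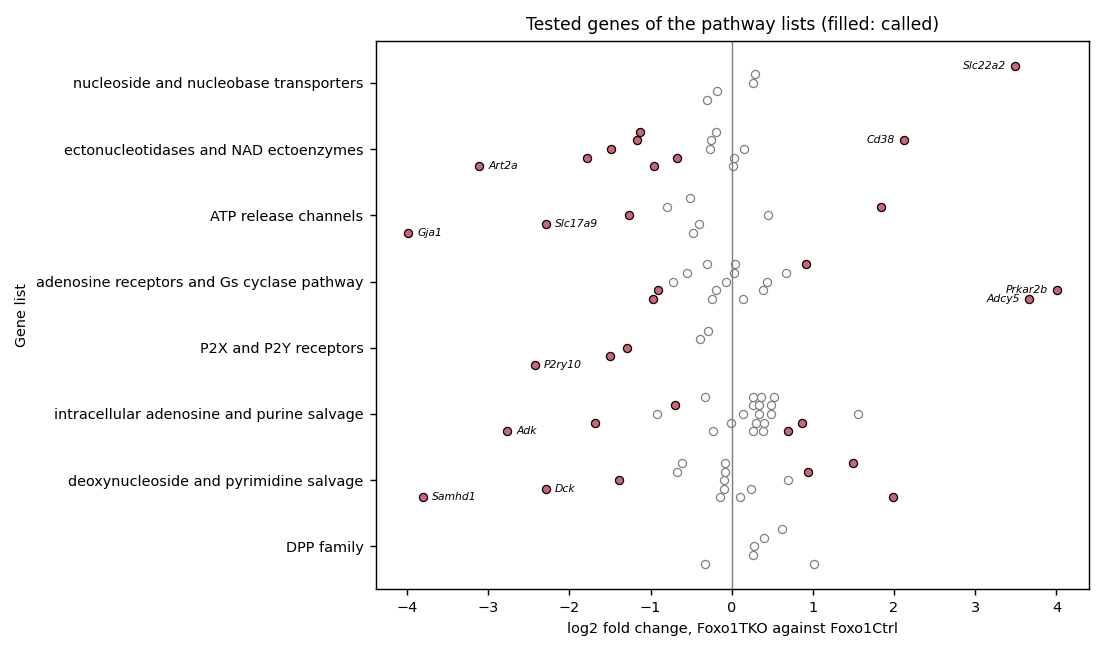
Log2 fold change, Foxo1TKO against Foxo1Ctrl (horizontal axis), of the 95 tested genes of the 8 pathway lists, 1 row of points per list, spread vertically for legibility. Filled points were called (11 higher, 21 lower), and genes past a log2 fold change of 2 in size are named.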

How the data were processed

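RNA-seq was analysed for 3 Foxo1TKO and 3 Foxo1Ctrl libraries, assigned by the titles of their labels. The authors aligned reads with STAR 2.7.6a to Ensembl GRCm38, kept reads mapping uniquely or to a few loci, and counted per gene with RSEM 1.3.1. The authors deposited RSEM expected counts (not normalized), TPM values and effective lengths per library, as well as a table of normalized signal (rounded counts corrected by DESeq2 for library size and for effective length). Strandedness is not stated.

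For the fit, expected counts were rounded. The 13691 genes that reached 10 counts in 3 or more libraries were fitted with edgeR 4.0.16 in R 4.3.3 (TMM, glmQLFit and glmQLFTest, prior count 1, genotype as the only term), with Benjamini-Hochberg adjustment over all of them. Library totals of 14783890 to 19675447 limit the precision of genes with few counts, and the floor was 3 counts. Positions are from GENCODE M21 (GRCm38) and promoter windows from RefSeq (GRCm38.p6).

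The 10 genes, the pathway and marker lists and the tests were chosen with earlier results of these data known. The genes named were the 10 members, all called genes of each pathway list or, where more than 5 were called, the 5 with the largest absolute log2 fold change, all measured Slc28, Slc29 and Adora genes, the defining marker of each cell type, Foxo1, and the 3 genes nearest in pattern to Slc28a2b. Others named were chosen after their values were seen: the remaining called genes of the marker and salvage lists, Bambi, Art2b, Panx1, P2rx4, Dpp8, Dpp9, Pnp, Slc43a3, Slc23a2, Abcc4 and Abcc5. The neighbours of the Slc28a2 pair were taken by position. One of the defining markers is not reported here.

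Alternatives were DESeq2 1.42.0 (the authors' tool), limma-voom (limma 3.58.1), DESeq2 size factors in edgeR, other filters, an effective length offset, the deposited signal with limma (pseudocount 1), the replicate block, other thresholds and the omission of each library. A GC content offset, and the removal of Foxo1Ctrl replicate 2 together with Foxo1TKO replicate 1, were added after seeing the data. Figures were drawn with matplotlib 3.10.9.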

Additional observations from a re-analysis of the deposited data

How the results depend on the processing

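The 10 genes gave 6 or 7 calls under the alternative fits and 5 or 6 with each library left out, against the 7 reported. Slc28a2b fell under the count filter when any Foxo1Ctrl library was left out, so it has 3 such fits. These counts describe genes chosen on the same difference and are no sign of stability. Slc29a1 kept its direction throughout but lost its call with an effective length offset (log2 fold change 1.24), with the deposited signal and limma (1.35) and in 5 of 6 leave-one-out fits. Ada changed sign without Foxo1Ctrl replicate 2 (0.028) and without Foxo1TKO replicate 1 (0.147), as did Adora2a (−0.354 and −0.743). With each library left out, Ada ran from −0.149 to 0.147 and Adora2a from −0.743 to 0.487. With both of these libraries left out, a setting added after seeing the data, the log2 fold changes were 0.20 for Ada, 0.67 for Slc29a1, still called, −0.0583 for Slc29a3 and −1.25 for Adora2a, which was then called. These are the lowest Foxo1Ctrl and the highest Foxo1TKO library for Adora2a, Slc29a1 and Slc29a3, so their removal lowers all 3 values by construction. The pathway lists gave 17 to 34 calls with each library left out and 19 at an adjusted p under 0.01, fewer than 32 because the threshold is stricter. No label says whether libraries with the same replicate number came from the same experiment. For protein levels and cell cycles in such cultures, the paper compared the genotypes as pairs, by experiment. Correlations of the deviations of same-numbered libraries were 0.43, 0.20 and −0.11, and Foxo1TKO replicate 3 correlated best with Foxo1Ctrl replicate 2. With so few libraries these correlations cannot decide whether the libraries are paired. With the replicate number as a block, 7 of the 10 genes and 35 pathway genes were called. The rounded expected counts leave the share of reads between Slc28a2 and Slc28a2b to RSEM.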
